A study of Caenorhabditis elegans with 9 samples.

Results

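Genes known from neurons that make or handle the inhibitory transmitter GABA, namely snf-11, unc-55 and unc-30, were followed by symbol in RNA sequencing libraries of sorted VA motor neurons of the nematode Caenorhabditis elegans. They are 3 of 2550 genes listed in 2 tables that the authors deposited. The first table holds 2349 genes called higher in wild type VA neurons than in whole worms, and lists snf-11 and unc-55. The second holds 214 genes called higher in VA neurons of unc-4 mutants than of wild type, and lists unc-30. Each group had 3 libraries from synchronized larvae of the L2 stage.

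Both sorted groups carried pUnc-4::mCherry and pUnc-4C::GFP, and cells with red but no green signal were collected by fluorescence-activated sorting, so the gate admits AVF interneurons beside VA neurons. The unc-4 group bears the same strain label with no allele named. Whole worms were of the N2 strain without these reporters and were frozen, not sorted, so that group differs in strain and handling as well as in cells. The labels do not say whether replicates came from separate cultures, and p-values measure only the spread between these libraries, which may be technical. Levels are TPM, a measure scaled by transcript length and by the library total, so levels of different genes may be compared within a library but sequencing depth is unknown. In these bulk libraries, more cells of a type and more RNA per cell cannot be told apart.

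GABA is made by glutamate decarboxylase (unc-25) and loaded into vesicles by the transporter UNC-47 with its partner UNC-46. SNF-11 is the plasma membrane transporter, of the SLC6 family, that takes GABA back up, and it is described in AVF, a neuron that holds GABA without making it, as well as in GABA neurons and muscle. UNC-30 is a PITX-type homeodomain factor that turns on unc-25 and unc-47 in the D-type (DD and VD) motor neurons of the ventral cord, and it is also described in several neurons that are not GABAergic. UNC-55 is a COUP-TF-type nuclear receptor that keeps VD neurons from taking on the connections of DD neurons, and it is also described in the cholinergic AS motor neurons. VA neurons themselves are cholinergic and excite body muscle.

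The genes lie on different chromosomes of the WBcel235 build. The 6 exons of snf-11 (WBGene00004910) span chromosome V, 11305070 to 11308446, on the minus strand. The gene unc-55 (WBGene00006790) spans chromosome I, 7898434 to 7903334, on the minus strand, and an exon of it overlaps F55D12.6, a protein-coding gene on the opposite strand. No source used here says whether counting used strand, so reads of unc-55 and F55D12.6 may not be told apart and the unc-55 level is uncertain to that extent. The gene unc-30 (WBGene00006766) spans chromosome IV, 13118977 to 13124406, on the plus strand, with 5 to 8 exons in its 4 annotated transcripts. No protein-coding gene overlaps snf-11 or unc-30 in the annotation.

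**Figure D1:**
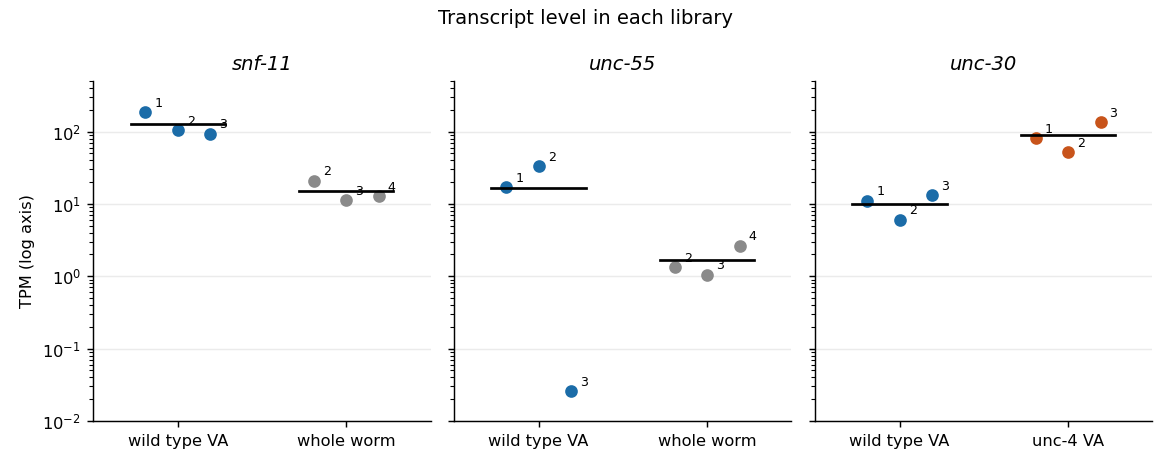
TPM (log axis) of snf-11, unc-55 and unc-30 in each library of the table that lists the gene, with replicate numbers beside the points and a bar at the mean of 3 libraries. The groups of snf-11 and of unc-30 do not overlap, whereas unc-55 read 0.0256 TPM in wild type VA replicate 3, below every whole-worm library.

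The GABA transporter gene snf-11 was far above its whole-worm level in all 3 wild type VA libraries. VA replicates 1, 2 and 3 held 184, 103.98 and 93.0 TPM of it, and whole-worm replicates 2, 3 and 4 held 21.03, 11.2 and 12.7 TPM. The groups did not overlap, and the lowest VA library stood 4.42 times above the highest whole-worm library. The means were 127 ± 49.5 TPM (SD, n = 3) and 14.98 ± 5.29 TPM (n = 3), a ratio of 8.47. The authors' deposited table gives a fold of 11.03 with an FDR p-value of 3.6e-13.

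On log2(TPM + 1), snf-11 differed by 2.98 ± 0.37 (SE) with a 95% interval of 2.17 to 3.80 (adjusted p = 2.8e-05 by limma over the 2328 genes averaging 1 TPM or more in either group). All genes of the table passed the authors' threshold (100%), 95.1% of those fitted passed here, and 91.9% had VA and whole-worm libraries that did not overlap. Passing and separation are therefore the rule in this table, whose genes were selected on the same libraries, and neither sets snf-11 apart. An exact permutation test of the 6 libraries gave a two-sided p of 0.1, the smallest that 3 against 3 allows. Among the 2349 genes snf-11 ranked 374 by mean TPM in VA and 796 by ratio of means, against a table median ratio of 5.18. The ratio lay between 6.57 and 10.6 with any single library left out.

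Much of that enrichment was shared by genes that all neurons use. Of 20 pan-neuronal genes, 19 were listed, with a median ratio of 10.6; 12 of them had a larger ratio than snf-11 and 7 a smaller one. Relative to the summed TPM of those 19 genes, snf-11 made up 1.55%, 1.54% and 1.13% in VA (replicates 1 to 3) and 2.45%, 1.23% and 1.46% in whole worms (replicates 2 to 4). The groups overlapped on this scale, with means of 1.40% ± 0.238 (SD, n = 3) and 1.71% ± 0.652 (n = 3). The log2 difference was -0.32 ± 0.32 (SE), with a 95% interval of -1.03 to 0.38 (adjusted p = 0.38 by limma), where the median of all listed genes was -1.47. The peptide-processing gene egl-21 contributed 23.6% to 43.2% of the sum in VA and 33.1% to 39.8% in whole worms. On the same scale unc-4 itself was higher by 3.04 ± 0.27, unc-3 by 2.68 ± 0.32 and the vesicular acetylcholine transporter gene unc-17 by 2.82 ± 0.35 (adjusted p = 0.00015, 0.00022 and 0.00022 by limma). Cells were sorted on unc-4 reporters, so a rise of unc-4 followed from the sort and is no benchmark for snf-11. In this scaled fit 6.14% of genes passed as higher and 65.9% as lower. The motor neuron lists were mixed on this scale. Of 7 listed class factors, 3 passed as higher (unc-4, unc-3 and bnc-1), 2 passed as lower (unc-37 at -1.78 and cfi-1 at -1.89) and 2 did not pass (lin-39 at -0.60 and unc-55). Of 5 cholinergic genes, unc-17 and the choline transporter gene cho-1 passed as higher. The acetylcholinesterase gene ace-2 passed as lower at -2.13, and cha-1 (0.55) and ace-3 (-0.23) did not pass. The 1 added to each TPM shrinks the rise of low genes, which on this scale can read as a fall. The values of cfi-1 and ace-2 are uncertain for that reason, as are those of other low genes, whether or not they are among the 65.9%. Mean levels in VA and whole worms were 3.02 and 0.410 TPM for cfi-1 and 1.92 and 0.312 TPM for ace-2 (unscaled ratios 7.36 and 6.15).

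**Figure D2:**
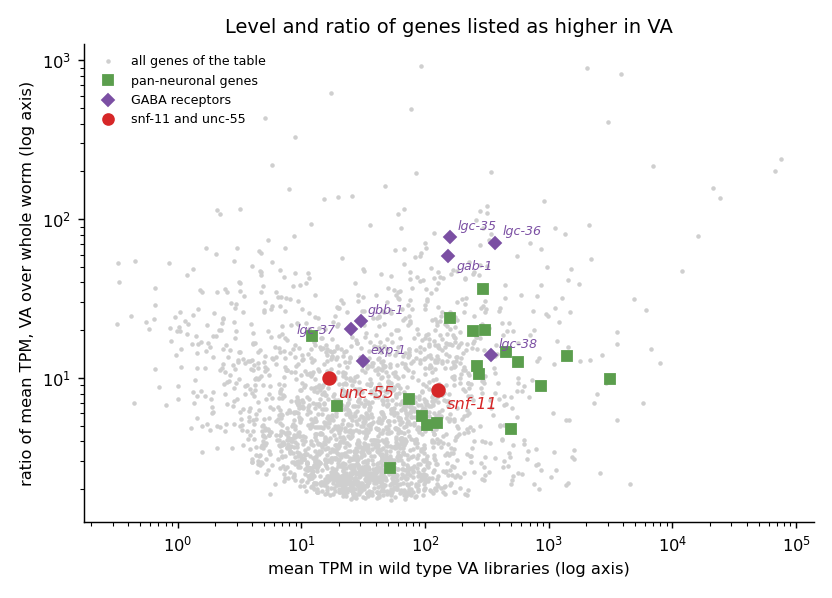
Mean TPM in wild type VA libraries (x) against the ratio of mean TPM, VA over whole worm (y), both on log axes, for the genes of the table with a whole-worm mean above 0. At ratios of 8.47 and 10.1, snf-11 and unc-55 lie among the 19 pan-neuronal genes, with a median of 10.6, whereas lgc-35, lgc-36 and gab-1 lie at 77.2, 71.3 and 59.1.

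Within the VA libraries the proportion of snf-11 to other genes varied by a factor that differed between gene lists. It amounted to 19.4%, 14.99% and 19.7% of the level of unc-3, the COE-type factor of cholinergic motor neurons, in VA replicates 1, 2 and 3. Against bnc-1, a zinc finger gene of VA and VB neurons, it amounted to 15.6%, 11.9% and 10.6%. Over the 6 listed class factors of ventral cord motor neurons other than unc-55, the highest of these proportions exceeded the lowest by 1.32 to 3.10 times (median 1.56). Over 5 genes of AVK interneurons, which include the peptide gene flp-1, the same measure ran from 3.13 to 16.479 times (median 3.89). The median was 1.78 times over 19 pan-neuronal genes, 1.83 times over 7 GABA receptor genes and 2.78 times over 5 cholinergic genes, so a low value was not particular to class factors. Against flp-1, snf-11 amounted to 0.295%, 0.484% and 0.0783%. All 5 AVK genes were lowest in VA replicate 2, and snf-11 was lowest in replicate 3. Of all 2349 listed genes, 978 were lowest in replicate 2 and 1246 in replicate 3, so either is common. These are 3 libraries and give a description without a test.

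The neighbours of snf-11 in profile came from varied functions. Profiles were compared by the root mean square difference of log2(TPM + 1) over 6 libraries after centring each gene on its mean. The 5 nearest of 2327 genes were F29A7.4, T05H10.8, the calmodulin-dependent kinase gene cmk-1, F53B1.3 and Y7A9D.1, at distances of 0.16 to 0.18 against a median of 0.82. VA libraries held 161, 98.2 and 104.1 TPM of cmk-1, and whole-worm libraries 20.99, 14.4 and 14.7 TPM. With a pseudocount of 0.1 in place of 1, cmk-1 and Y7A9D.1 stayed among the 5 nearest.

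The nuclear receptor gene unc-55 was unequal among the VA libraries. VA replicate 1 held 17.003 TPM and replicate 2 held 33.5 TPM, but replicate 3 held 0.0256 TPM. Whole-worm replicates 2, 3 and 4 read 1.34, 1.05 and 2.63 TPM. VA replicates 1 and 2 were above, and VA replicate 3 below, every whole-worm library. Mean levels were 16.8 ± 16.7 TPM (SD, n = 3) and 1.68 ± 0.843 TPM (n = 3), a ratio of 10.1. The authors' deposited table gives a fold of 13.1 with an FDR p-value of 0.0024.

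On log2(TPM + 1) unc-55 differed by 1.73 ± 0.99 (SE), with a 95% interval of -0.43 to 3.89, and did not pass (adjusted p = 0.11 by limma). Without VA replicate 3 the difference was 3.26 ± 0.40 and passed (adjusted p = 0.00010 by limma, the lone alternative of 13 in which it passed as higher). The ratio of means was 15.1 without VA replicate 3 and 5.08 without VA replicate 2. The exact permutation test gave a two-sided p of 0.4.

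No other gene in the comparison was spread as widely with a value above 0 in each library. Of 2117 genes that averaged 5 TPM or more in VA with no library at 0, unc-55 had the largest ratio of its highest to its lowest VA library, 1308 against a median of 2.06 over such genes. This ratio rests on a lowest value of 0.0256 TPM, near 0, and no detection floor could be set, so its size is uncertain. A further 4 genes with that mean had a VA library at 0, and their spread cannot be given as a ratio. Only 10 of 2121 genes with that mean had a lowest VA library under 1% of the highest. In 8 of them that library was VA replicate 3: unc-55, K07C5.13, K09F6.6, F35C8.9, F07C6.2, R13G10.4, dct-10 and Y38H6C.25. The corresponding spread of snf-11 was 1.98.

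**Figure D3:**
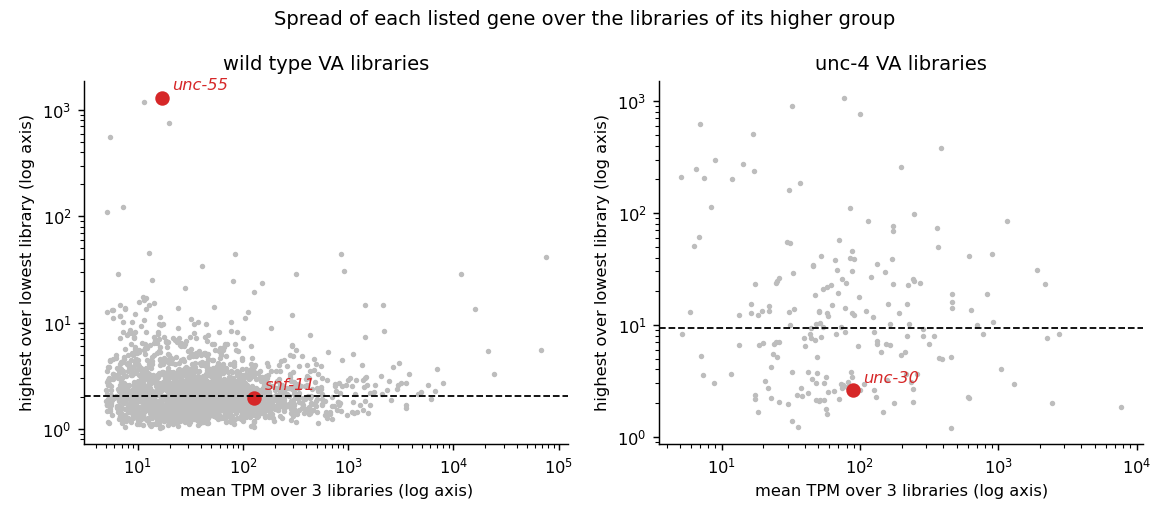
Mean TPM (x) against the highest library divided by the lowest (y), both on log axes, for listed genes averaging 5 TPM or more, with no library at 0, in wild type VA (left, 2117 genes) or unc-4 VA libraries (right, 204 genes). The dashed line is the median, 2.06 on the left and 9.47 on the right; unc-55 stands at 1308, snf-11 at 1.98 and unc-30 at 2.60.

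Of the 7 listed class factors, 4 were lowest in VA replicate 3, namely unc-55, unc-3, unc-37 and cfi-1. The same held for 1246 of all 2349 listed genes, so this count does not set the class factors apart. In that library unc-4 read 1129, unc-3 471 and bnc-1 875 TPM, and unc-55 amounted to 0.00227% of unc-4, against 1.30% and 3.58% in VA replicates 1 and 2. The 5 genes nearest to unc-55 in profile were F35C8.9, the tubulin ligase-like gene ttll-12, F33H1.4, dct-10 and let-99, at distances of 0.59 to 0.68 against a median of 1.59. With a pseudocount of 0.1 none of these 5 stayed among the nearest. F35C8.9 read 11.7, 12.4 and 0 TPM in VA replicates 1 to 3 and was listed at 0 in all 3 whole-worm libraries.

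Other genes of GABA neurons were mostly not listed as higher in VA. Of 5 genes for GABA synthesis, packaging, uptake and breakdown, snf-11 was the one listed; unc-25, unc-46, unc-47 and the transaminase gene gta-1 were not. Of 11 genes described in D-type motor neurons, unc-55 alone was listed, and the peptide gene flp-13, the immunoglobulin-domain gene oig-1, ttr-39 and unc-30 were among those not listed. Of 9 transcription factors of GABA neurons, unc-55 and the homeobox gene tab-1 were listed. VA libraries held 90.0, 16.38 and 55.4 TPM of tab-1, and whole worms 3.17 to 3.29 TPM, without overlap (ratio 16.8, and 11.2 without VA replicate 1; adjusted p = 0.00011 by limma). The listed shares were 20.0% of the 5 pathway genes, 9.09% of the 11 D-type genes and 22.2% of the 9 factors, where the table lists 11.6% of annotated protein-coding genes. These shares count snf-11 and unc-55, which were taken as members from this table, so they cannot be weighed against the 11.6%. Apart from these members only tab-1 was listed. A gene that is not listed was not called higher than whole worms, and may still be present in VA: the other table gives unc-30 and flp-11 in the same wild type libraries.

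Of 14 SLC6 transporter genes 14.3% were listed, near the 11.6% of all protein-coding genes, and this share counts the member snf-11. Beside it snf-1 was listed, at 44.6 ± 20.2 TPM (SD, n = 3) in VA and 17.6 ± 2.11 TPM (n = 3) in whole worms. The dopamine and serotonin transporter genes dat-1 and mod-5 were not listed. The call of snf-1 (adjusted p = 0.013 by limma) held in 5 of the 6 fits with 1 library left out. Relative to the summed pan-neuronal genes snf-1 passed as lower, with a log2 difference of -2.12 ± 0.30 (SE; adjusted p = 0.00026 by limma).

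Receptors that sense GABA were the largest GABA-linked group among the listed genes. Of 9 receptor genes 7 were listed (77.8%, against 11.6% of all protein-coding genes), with a median ratio of 22.9 against 5.18 for the table. Such a share was not particular to receptors: 100% of AVK, 95% of pan-neuronal, 71.4% of cholinergic and 70% of class factor genes were listed. Other neuronal lists had lower shares, down to 0% for genes of glutamate and amine neurons. The libraries of VA and whole worms did not overlap for any of the 7, and all 7 passed limma's test in the full fit and in each of the 6 fits with 1 library left out. Among all listed genes, 91.9% were likewise without overlap, and 95.1% of those fitted passed in the full fit. Neither result therefore sets the receptors apart. Together they reached 866 to 1470 TPM in VA and 33.9 to 44.4 TPM in whole worms. The 2 genes not listed were the GABA-A type receptor gene unc-49 and the GABA-B receptor subunit gene gbb-2.

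The GABA-A type subunit genes lgc-36 and lgc-38 had the highest means, 368 and 342 TPM. VA libraries held 466, 216 and 343 TPM of lgc-38, and whole worms 22.6 to 25.9 TPM. The level of lgc-36 was 429, 445 and 229.5 TPM in VA replicates 1 to 3 and 2.05 to 8.92 TPM in whole worms (ratio 71.3, and 112 without whole-worm replicate 2). The gene lgc-35, which encodes a GABA-gated cation channel described in cholinergic motor neurons, read 278, 109 and 93.8 TPM against 1.79 to 2.52 TPM (ratio 77.2, and 48.8 without VA replicate 1). The subunit gene gab-1 read 184, 119.4 and 156 TPM against 2.17 to 2.83 TPM (ratio 59.1). The ratios of lgc-36, lgc-35 and gab-1 were all above those of snf-11 and unc-55.

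Relative to the summed pan-neuronal genes, lgc-36, lgc-35 and gab-1 remained higher in VA by 2.70 ± 0.45, 2.24 ± 0.33 and 2.10 ± 0.28 on the log2 scale (SE; adjusted p = 0.00050, 0.00029 and 0.00022 by limma). For lgc-38, lgc-37, gbb-1 and exp-1 the scaled differences were 0.38, 0.25, 0.17 and -0.37, and did not pass (adjusted p = 0.20, 0.50, 0.79 and 0.53). Their unscaled ratios were 14.02, 20.5, 22.9 and 12.8, where the median of the 19 pan-neuronal genes was 10.6. Whole-worm means of lgc-37, gbb-1 and exp-1 were only 1.24, 1.32 and 2.48 TPM. The 1 added to each TPM shrinks their scaled differences, so whether they rose beyond pan-neuronal genes is uncertain. The exp-1 gene encodes a cation channel that GABA opens, known from enteric muscle, and gbb-1 encodes a GABA-B subunit.

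**Figure D4:**
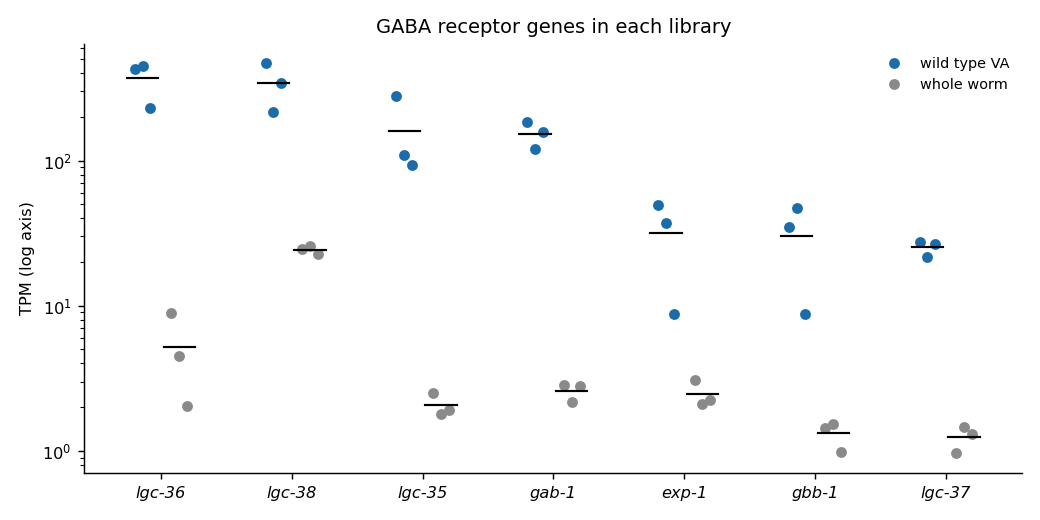
TPM (log axis) of the 7 listed GABA receptor genes in the 3 wild type VA libraries (blue) and the 3 whole-worm libraries (grey), with bars at the group means. In each gene all blue points lie above all grey points, with ratios of means from 12.8 (exp-1) to 77.2 (lgc-35).

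Markers of some other cells were listed in the same table as snf-11 and unc-55, and those of others were not. No muscle gene (of 10), no gene of glutamate and amine neurons (of 9) and no coelomocyte, glia, intestine or hypodermis gene was listed in the whole-worm table. That table holds only genes called higher in VA than in whole worms. Genes of such cells can stay unlisted even where some of the cells were sorted, so their presence was not tested. The coelomocyte genes cup-4 and unc-122, given in the comparison with unc-4 mutants, summed to 38.6 to 142 TPM in the same wild type VA libraries. All 5 AVK genes were listed, at a summed 31801 to 153229 TPM in VA and 615 to 755 TPM in whole worms. So were 3 of 8 touch neuron genes, at 4584 to 10480 against 507 to 728 TPM, where 11.6% of protein-coding genes were listed. Most of the AVK sum was flp-1 and the peptide gene nlp-49 (means 67544 and 24105 TPM in VA). Relative to the summed pan-neuronal genes these 2 passed as higher (4.03 and 3.61). On that scale unc-42 (-0.60), pdf-1 (-0.33) and fax-1 (-0.01) did not pass. Of the touch genes mec-7 passed as lower (-1.50), and mec-12 (0.57) and mec-2 (0.22) did not pass. Of 3 genes of VC neurons, in which unc-4 reporters are also described, the LIM homeobox gene lin-11 was listed at 96.1, 38.9 and 41.7 TPM in VA replicates 1 to 3 and 5.91 to 7.24 TPM in whole worms. None of the lists holds a marker found in AVF alone, so the share of AVF cells in these libraries was not tested, and neither was the part of any of these cells in the levels of snf-11 and unc-55. Stress genes, mainly near-identical heat shock genes whose single values are uncertain, took 5.04%, 32.4% and 1.79% of the TPM of the VA libraries and at most 0.190% in whole worms; a share of this size lowers every other TPM of VA replicate 2. With those genes left out of the totals, the log2 differences were 3.20 ± 0.37 for snf-11 and 1.94 ± 1.18 for unc-55.

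The homeodomain gene unc-30 was higher in unc-4 mutant than in wild type VA libraries. Mutant replicates 1, 2 and 3 held 80.7, 51.6 and 134 TPM of it, and their wild type counterparts 11.01, 6.04 and 13.2 TPM. The groups did not overlap, and the lowest unc-4 library stood 3.90 times above the highest wild type library. Mean levels were 88.7 ± 41.7 TPM (SD, n = 3) and 10.1 ± 3.69 TPM (n = 3), a ratio of 8.79. The authors' deposited table gives a fold of 7.57 with an FDR p-value of 0.00066.

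On log2(TPM + 1) unc-30 differed by 2.97 ± 0.86 (SE), with a 95% interval of 1.10 to 4.84 (adjusted p = 0.024 by limma over 214 genes). All genes of this table passed the authors' threshold (100%), 80.8% passed here, and in 70.1% the mutant and wild type libraries did not overlap. The adjusted call was lost without wild type replicate 1, 2 or 3 (adjusted p = 0.066, 0.10 and 0.068) or without unc-4 replicate 3 (0.087), and was kept without unc-4 replicate 1 or 2 (0.049 and 0.00029), while the difference stayed between 2.62 and 3.30 and the ratio of means between 6.55 and 10.6. The exact permutation test gave a two-sided p of 0.1, again the smallest possible. By ratio of means unc-30 ranked 167 of 214, below the table median of 14.9.

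Among the mutant libraries unc-30 was more even than most genes of its table. Its highest unc-4 library exceeded the lowest by 2.60 times, where the median over 204 genes averaging 5 TPM or more, with no library at 0, was 9.47, and 174 of them were more unequal. Replicate 2 was the lowest unc-4 library for unc-30, as for 178 of the 214 genes. The wild type level was low beside VA genes of the same libraries: unc-30 amounted to 0.840%, 0.645% and 1.17% of unc-4 and to 4.34%, 3.62% and 3.71% of unc-17, whose exons overlap those of cha-1, so that its level is uncertain.

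In the order of levels in wild type VA libraries, unc-4 (1126 ± 187 TPM), bnc-1 (977 ± 176) and unc-3 (703 ± 238) came first, followed by unc-17 (259 ± 95.3), snf-11 (127 ± 49.5), unc-55 (16.8 ± 16.7) and unc-30 (10.1 ± 3.69; SD, n = 3 for each). The ranges of unc-17 and snf-11 overlapped, as did those of unc-55 and unc-30. Within each library snf-11 was below unc-17, at 72.5%, 62.4% and 26.1% of it in replicates 1, 2 and 3. The order of unc-55 and unc-30 changed, with unc-55 at 154%, 555% and 0.194% of unc-30. Every snf-11 value was above every value of unc-55 and of unc-30.

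Of the 11 D-type genes, the peptide gene flp-11 was listed beside unc-30 as higher in unc-4 mutants, against 1.07% of all protein-coding genes listed in that table. The gene unc-30 was taken as a member from that table, so its own listing adds nothing to this count. Mutant libraries held 659, 362 and 811 TPM of flp-11 and wild type libraries 51.5, 27.04 and 56.7 TPM, without overlap (ratio 13.5; adjusted p = 0.0199 by limma). That call was kept in 3 of the 6 fits with 1 library left out, those without unc-4 replicate 1, unc-4 replicate 2 or wild type replicate 3. In the wild type libraries unc-30 amounted to 21.4%, 22.3% and 23.3% of flp-11. In the unc-4 libraries it amounted to 12.3%, 14.2% and 16.509% of flp-11, so the proportion was not kept between genotypes. A near-even proportion within wild type was not particular to flp-11. Against the cholinergic gene unc-17, whose level is uncertain, unc-30 amounted to 4.34%, 3.62% and 3.71%. The other list genes compared varied more against unc-30 in wild type. A link of these proportions to D-type neurons was not tested. The gene flp-11 is also known from the sleep neuron RIS. The GABA genes unc-25 and unc-47, which UNC-30 controls in D-type neurons, were not listed, and neither were unc-55, unc-46, snf-11, oig-1, flp-13 or any GABA receptor gene.

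**Figure D5:**
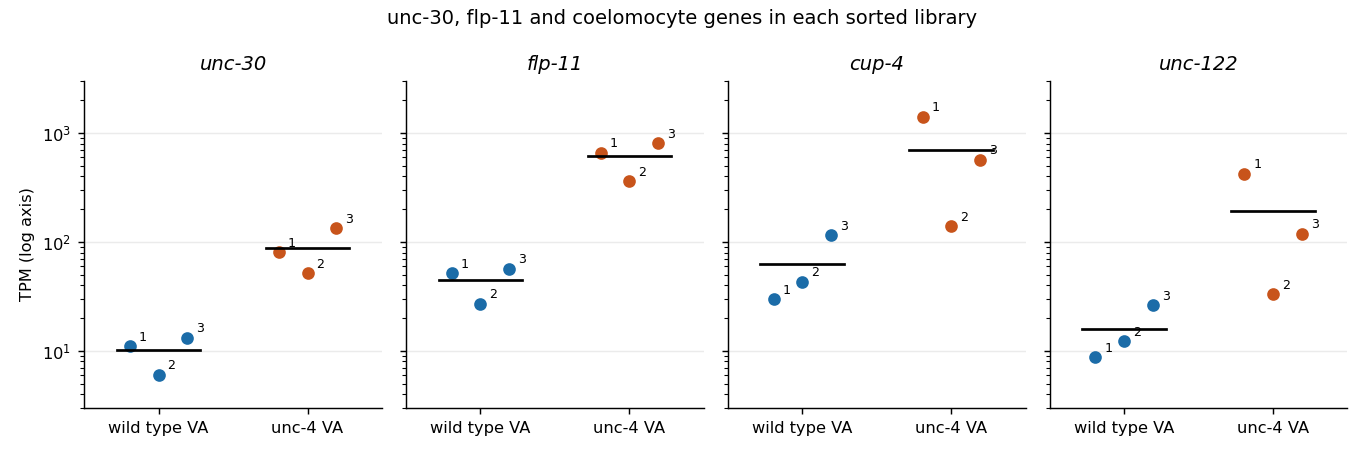
TPM (log axis) of unc-30, flp-11 and the coelomocyte genes cup-4 and unc-122 in each sorted library, with replicate numbers and bars at the group means. Replicates 1, 2 and 3 of the mutant held 80.7, 51.6 and 134 TPM of unc-30 beside 1409, 140 and 567 TPM of cup-4.

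Genes of other cells were listed in the same mutant libraries. Of 4 coelomocyte genes, cup-4 and unc-122 were listed, where 1.07% of protein-coding genes were. Their summed level was 1831, 173 and 686 TPM in the mutant libraries and 38.6 to 142 TPM in wild type. Each passed limma's test in the full fit (adjusted p = 0.026 and 0.028) but in only 1 of the 6 fits with 1 library left out. Without unc-4 replicate 1 the ratios of means moved from 11.2 to 5.63 for cup-4 and from 12.1 to 4.81 for unc-122. Like unc-30, cup-4 and unc-122 were lowest in unc-4 replicate 2, whereas they were highest in replicate 1 and unc-30 in replicate 3. Of 8 intestine genes lys-1 was listed, at 89.2, 326 and 47.9 TPM. Of 7 genes of ASG, PVP, RIH and AVJ neurons, in which unc-30 is also described, the ASG guanylyl cyclase gene gcy-15 was listed, at 66.2, 0 and 12.1 TPM in unc-4 replicates 1 to 3 and at most 0.622 TPM in wild type; its groups overlapped and it did not pass limma's test (adjusted p = 0.069). The wild type libraries listed 4 others of these 7 genes as higher than whole worms, lin-11, odr-2, pdf-1 and hlh-34. That is 57.1%, against 11.6% of all protein-coding genes, and neuronal lists ranged from 0% to 100% there. Relative to the summed pan-neuronal genes hlh-34 passed as higher (2.29). On that scale lin-11 (-0.42), odr-2 (-0.40) and pdf-1 (-0.33) did not pass. The part of any of these other cells in the rise of unc-30 was not tested.

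The 5 genes nearest to unc-30 in profile among 213 were M02F4.1, the superoxide dismutase gene sod-4, K01A6.6, Y73B6BL.47 and Y64G10A.7, at distances of 0.22 to 0.37 against a median of 0.93. Mutant libraries held 71.4, 37.4 and 111 TPM of sod-4, and wild type libraries 9.32, 3.70 and 15.1 TPM. The class factor ceh-12, a VB neuron homeobox gene held down by UNC-4, had another pattern, at 40.2, 139 and 85.5 TPM in the same unc-4 libraries, and was highest where unc-30 was lowest.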

How the data were processed

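RNA of sorted VA neurons and of whole worms was sequenced in 9 libraries. The authors deposited 2 tables of TPM per library, per the file headers. The authors' fold change, read as a linear ratio, and the authors' FDR p-value stand beside them, per the file headers. Genes were placed on WBcel235, as named in the submitters' processing notes; aligner, counting and test are not given in the sources used here. Each table lists only genes the authors called higher, and 2 entries without a gene name were left out. The 13 genes in both tables had the same wild type values in each.

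Within each table, log2(TPM + 1) was fitted by limma 3.58.1 (R 4.3.3, trend option) for genes averaging 1 TPM or more in a group, and p-values were adjusted by Benjamini-Hochberg over all of them. Such log2 differences understate changes of low genes, and relative to the pan-neuronal sum this can read as a fall. The fit was tested on simulated data. The tables hold genes selected on the same libraries, so these p-values are not independent evidence. Single genes had exact permutation tests. Coordinates come from the Ensembl annotation of WBcel235.

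The members and 19 gene lists were chosen with earlier results of these data known. Named genes were the members, list genes that a table holds (for cell type lists not tied to GABA, VA, VC, AVK or unc-30, up to 4 examples of the highest mean) and the 5 genes nearest in profile to each member. Within-library proportions and the genes low in VA replicate 3 were chosen after their values were seen. A planned search of promoters was not run, since no promoter sequence was used here.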

Additional observations from a re-analysis of the deposited data

How the results depend on the processing

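The difference of snf-11 between VA and whole worms kept its direction and its call under pseudocounts of 0.1 and 5, no filter on low values, TPM rescaled without stress genes and each library left out (2.69 to 3.24 on the log2 scale). It reversed relative to unc-4 (-3.36, adjusted p = 3.4e-06 by limma), and so did unc-55 (-4.62, adjusted p = 0.0037). Cells were sorted on unc-4 reporters, so the unc-4 scale lowers other genes by construction. Relative to summed pan-neuronal genes both had a negative sign but did not pass (snf-11 -0.32, adjusted p = 0.38, and unc-55 -1.57, adjusted p = 0.19, by limma). The 95% intervals, -1.03 to 0.38 and -3.85 to 0.70, held 0. As a share of that sum unc-55 averaged 0.213% in VA and 0.191% in whole worms, with VA replicate 3 at 0.000311%. With each library left out unc-55 differed by 0.73 to 3.26, and passed only without VA replicate 3. The unc-30 difference stayed between 2.57 and 3.30, with adjusted p from 0.00029 to 0.10 over 10 alternatives, and its call was lost in 4 of the 6 fits with 1 library left out (2.62 to 3.30). Genes past limma's threshold numbered 2214 in the whole-worm table (1899 to 2247 with 1 library left out) and 173 in the unc-4 table (0 to 211). In the latter limma passed 2, 1 and 14 genes without wild type replicate 1, 2 and 3, 42 without unc-4 replicate 1, and 0 without unc-4 replicate 3, where 101 had an unadjusted p under 0.05; the cause was not tested. The unc-55 ratio of means moved to 5.08 without VA replicate 2. With a pseudocount of 0.1, 2, 0 and 2 of the 5 nearest genes of snf-11, unc-55 and unc-30 stayed. The unc-4 table lists no stress gene and could not be rescaled.

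Same-numbered libraries are not said to share an origin, and their deviations from group means correlated at 0.02, 0.18 and 0.06 across 214 genes in the unc-4 table and at 0.07 and -0.01 in the whole-worm table; not every library correlated best with its own number. With the replicate number as a block (shared by replicates 2 and 3 in the whole-worm table), 185 genes of the unc-4 and 1597 of the whole-worm table passed, and the differences were 2.60 for snf-11, 1.44 for unc-55 (adjusted p = 0.053) and 2.97 for unc-30 (adjusted p = 0.013), with no member's call changed. Groups of 3 limit the exact tests, and without counts no detection floor could be set.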
